A study of Caenorhabditis elegans with 2 samples.

Results

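The nuclear hormone receptor genes of Caenorhabditis elegans were examined for binding of the forkhead protein FKH-6. The members were the 269 protein-coding nuclear genes whose name begins with nhr- in the Ensembl annotation of WBcel235, the assembly also called ce11, together with daf-12, unc-55, odr-7, fax-1 and sex-1. They numbered 274 of 19973 nuclear protein-coding genes. The rule used names alone and no measured value, but it was set with earlier results of these data known. ChIP-seq, in which DNA bound by a protein is recovered with an antibody and sequenced, gave peak lists for 1 group of 2 biological replicates. The group was whole hermaphrodites of strain OP78, with the genotype unc-119(ed3) III and the transgene wgIs78, which adds FKH-6 fused at its C terminus to a GFP-FLAG tag. Late embryos were collected 5.5 hours after egg bleaching and chromatin was recovered with an antibody to GFP. All cells of the embryo were mixed, so the lists do not say in which cells a region was bound, and the tagged protein came from a transgene.

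Nuclear hormone receptors are transcription factors with a zinc-finger DNA-binding domain and, in most members, a domain that can hold a small lipophilic ligand such as a sterol or fatty acid. Nematodes carry a greatly expanded family, most of it related to the vertebrate receptor HNF4 and placed in arrays on chromosome V, beside a small number of receptors that have clear counterparts in insects and vertebrates. Members of the family are known for control of moulting, dauer entry, fat metabolism, detoxification and neuronal identity. FKH-6 is known for its part in forming the somatic gonad.

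Distances are from a region's summit to the 5' end of the annotated gene, and a region counted for a gene when that distance was at most 2000 bp. The pooled list, called on both replicates together, is permissive: its authors' description calls it peaks and background for a reproducibility step. It had 26164 regions, replicate 1 had 19624, replicate 2 had 26209, and the reproducible list kept 767. The lowest signal of the reproducible list, 89.1, was also that of the 767 highest pooled regions. Its regions thus appear to be those of highest pooled signal, and each need not rank high in both replicates. The signal is the authors' value for a region, on a scale that the sources used here do not give, and it orders regions within a list. Read numbers are absent from such lists and the depth behind each region is unknown.

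Only 3 receptor genes had a reproducible FKH-6-GFP region within 2000 bp, nhr-1, nhr-32 and nhr-255, all on chromosome X and all with the summit upstream. Their count came to 1.09% of the family, with a 95% Wilson interval of 0.373 to 3.17, against 4.17% of the 19699 remaining protein-coding genes (3.90 to 4.46). The 101 bases around these summits (ce11, plus strand, 5′ to 3′) are taken from the RefSeq genome. They are shown because they lie under the reproducible summits counted for receptors. Those of nhr-40 and nhr-41 are added, whose reproducible regions lay inside the gene and within 2000 bp of a transcript start. Capitals mark matches to GAGAGA, which reads TCTCTC on this strand, in nhr-1, nhr-32 and nhr-40, and the bases of a tRNA gene in nhr-255 and nhr-41.

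nhr-1, chrX:17513644-17513744: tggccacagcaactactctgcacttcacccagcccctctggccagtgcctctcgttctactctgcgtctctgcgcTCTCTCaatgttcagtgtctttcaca
nhr-32, chrX:13251601-13251701: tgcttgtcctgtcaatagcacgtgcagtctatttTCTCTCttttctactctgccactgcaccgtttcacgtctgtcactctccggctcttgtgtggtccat
nhr-40, chrX:2598998-2599098: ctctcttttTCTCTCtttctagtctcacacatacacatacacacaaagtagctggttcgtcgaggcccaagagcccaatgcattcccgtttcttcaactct
nhr-255, chrX:15741997-15742097: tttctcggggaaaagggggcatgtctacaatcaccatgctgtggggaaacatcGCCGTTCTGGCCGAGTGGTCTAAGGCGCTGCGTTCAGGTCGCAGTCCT
nhr-41, chrIV:1388199-1388299: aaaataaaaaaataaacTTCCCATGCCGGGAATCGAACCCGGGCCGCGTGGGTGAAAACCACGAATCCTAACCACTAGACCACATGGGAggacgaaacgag

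The nhr-1 region (X, 17513464 to 17513923) had its summit outside every annotated exon, 369 bp upstream of the gene, which runs from 17514063 to 17528197 on the plus strand. Its signal was 106 in the pooled list, 43.6 in replicate 1 at 5 bp from that summit, and 59.9 in replicate 2 at 58 bp. No other gene, coding or non-coding, had its 5' end nearer. The match to GAGAGA began 25 bp from the summit.

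The nhr-32 region (X, 13251421 to 13251880) had its summit, also outside every exon, 313 bp upstream of the gene, which runs from 13251964 to 13256284 on the plus strand. Its signal was 94.1 in the pooled list, not far above 89.1, the lowest signal that the reproducible list kept. Replicate 1 had a signal of 36.6 at 26 bp from the summit. In replicate 2 the nearest summit, at 99 bp, had a signal of 18.4, and another at 101 bp had 53.5. The strongest summit thus stood 287 bp upstream of the gene in replicate 1 and 414 bp upstream in replicate 2. No 5' end of another gene was nearer, and GAGAGA began 16 bp from the summit.

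The nhr-255 region (X, 15742023 to 15742157) was the strongest within 2000 bp of a receptor gene, with a pooled signal of 194 and its summit 563 bp upstream. Replicate 1 had a signal of 99.96 at 8 bp from that summit and replicate 2 had 96.1 at 73 bp. The summit lay 3 bp from the 5' end of the tRNA gene WBGene00014626, which covers 48 of the 101 bases shown, and inside the ncRNA gene ZK678.11, whose 5' end was 107 bp away. The receptor was the nearest protein-coding gene, but both of these non-coding genes were nearer. Whether the region belongs to the receptor was not tested.

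Reproducible regions farther out showed how much the count rests on the 2000 bp limit. Just outside it, nhr-41, the counterpart of the insect receptor DHR78, had a reproducible summit 2034 bp into the gene (IV, 1388019 to 1388478, pooled signal 180), 38 bp from the 5' end of the tRNA gene WBGene00023202 and 152 bp from the start of a shorter nhr-41 transcript. Replicate 1 had a signal of 70.1 there and replicate 2 had 110. The farthest summit inside the limit was that of nhr-255, at 563 bp, so no counted receptor lay close to 2000 bp. Within 5000 bp there were 9 receptors with a reproducible region, a count not made for other protein-coding genes. The added ones were nhr-41, nhr-281 (2225 bp upstream, signal 296), nhr-102 (2438 bp, signal 493), nhr-17 (2636 bp into the gene, signal 278, and 2682 bp upstream, signal 110.6), odr-7 (3431 bp, signal 108) and nhr-11 (4431 bp, signal 113). The nhr-102, odr-7 and nhr-11 summits lay downstream, beyond the 3' end of the gene. The nhr-11 summit was closer to mppb-1, the nhr-281 summit lay 439 bp from F28H6.7, the nhr-102 summit 1397 bp from str-56 and the inner nhr-17 summit 1315 bp from nlp-76, so these 4 had a nearer protein-coding neighbour.

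A tRNA or snoRNA gene lay beside 6 of the reproducible regions at and around receptors. Counting every reproducible region within 5000 bp of a receptor, inside a receptor gene or within 2000 bp of a receptor transcript start, there were 11. Of these, 6 had a tRNA or snoRNA 5' end within 500 bp, or 54.5% (28.0 to 78.7), against 26.7% of the 735 other nuclear reproducible regions (23.6 to 29.98). Those near a tRNA gene were at nhr-281 (19 bp), nhr-17 (the inner region, 10 bp), nhr-255 (3 bp), nhr-41 (38 bp) and odr-7 (21 bp), and the nhr-102 region lay 44 bp from the snoRNA gene T06C12.16. The other 5 regions had signals from 94.1 to 113, and the 5 strongest of the 11 were all beside such a gene. Of the 122 other reproducible regions at least as strong as the weakest of those 5, 59.8% had such a neighbour, which the interval of 5 of 5 (56.6 to 100) holds. Without such a neighbour were nhr-1, nhr-32, nhr-40, nhr-11 and the upstream region of nhr-17. Those not within 2000 bp of a gene were named after their values were seen.

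**Figure D1:**
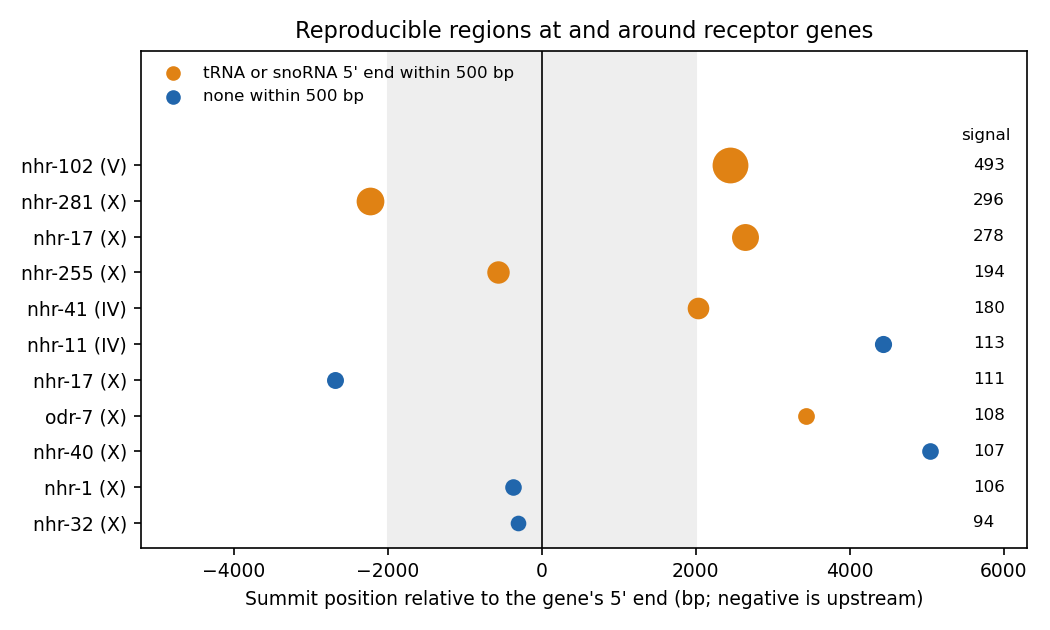
The 11 reproducible regions at and around receptor genes, by distance of the summit from the gene's 5' end in bp (negative is upstream), with the chromosome in brackets and the pooled signal at the right and as point area. The grey band is the 2000 bp limit, and orange points have a tRNA or snoRNA 5' end within 500 bp. Inside the band stand nhr-255, nhr-1 and nhr-32, and the strongest regions, from 180 to 493, are all orange.

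The nhr-40 region lay near an inner transcript start. The gene nhr-40 is known to act in development of embryonic body wall muscle. Its summit (X, 2598818 to 2599277) lay in an intron 5045 bp from the gene's 5' end and 360 bp from the start of a shorter transcript; T03G6.7, a protein-coding gene of 30 bp, had its 5' end 5009 bp away. The signal was 107 in the pooled list, 54.0 in replicate 1 and 49.8 in replicate 2, each with a summit 1 bp away. With transcript starts in place of gene starts, 5 receptors had a reproducible region, nhr-40 and nhr-41 being added. Other genes were not counted from transcript starts.

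Sequence composition at receptor summits was set beside that of other summits, in windows of 101 bp read on both strands. The first motif was the repeat GAGAGA. Another was the GC-rich GGGCGG. The last was the forkhead core TAAACA, and none of the 3 contains another. GAGAGA was in 2 of the 3 windows of the reproducible regions within 2000 bp of a receptor, while the GC-rich motif and the forkhead core were in 0 of 3. Among the other 743 nuclear reproducible regions, GAGAGA was in 21.3%, GGGCGG in 9.42% and TAAACA in 3.63%. The wide 95% Wilson intervals of the 3 windows hold these shares: 20.8 to 93.9% for GAGAGA and 0 to 56.1% for each other motif. Among pooled regions outside the reproducible list, the 203 near a receptor had GAGAGA in 12.8% (95% Wilson interval 8.89 to 18.1), GGGCGG in 3.45% (1.68 to 6.95) and TAAACA in 2.96% (1.36 to 6.30). The 25192 elsewhere had them in 10.5%, 3.94% and 5.30%. The mean GC content was 41.2% ± 9.65 near receptors and 42.4% ± 9.73 elsewhere (SD over windows). The intervals at the receptors hold the shares elsewhere for all 3 motifs.

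In the permissive pooled list, receptor genes had a smaller share with a region than other genes. A pooled region lay within 2000 bp of 137 of 274 receptors, or 50%, and of 61.1% of other protein-coding genes (60.4 to 61.8). A region in each of the 2 replicate lists was found for 83 receptors, or 30.3% (25.2 to 35.97), and for 43.1% of the others. The interval of the pooled share was 44.1 to 55.9, so in both cases the receptors' interval lies under the other genes' share. No test was made, and chromosome V, with lower shares, held 167 of the 274 receptors. Off V the pooled shares were 60.7% (51.3 to 69.5) and 65.6%, and those in both replicate lists 42.1% (33.1 to 51.5) and 46.9%. Those intervals hold the other genes' share. On V the pooled interval holds it too, while that of both replicate lists lies under it. Replicate 1 alone gave a region to 34 receptors and replicate 2 alone to 63, while 94 had one in neither. No region in any of the pooled and replicate lists was found for 84 receptors, or 30.7%, and 24.8% of other genes. Intervals cover counting error only, and neighbouring genes that share a region are not independent.

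The median signal at receptor genes was also lower in the pooled list, though not on every chromosome. The highest pooled signal within 2000 bp had a median of 36.5 over the 137 receptors that had a region (quartiles 30.2 and 43.6) and of 40.6 over the 12038 other genes that had one (31.8 and 54.1). By chromosome the receptor median was lower on I (34.4 against 41.7), IV (33.9 against 40.4) and V (33.6 against 38.8). It was higher on II (48.8 against 39.8), III (44.6 against 42.4) and X (49.8 against 41.2). Chromosome V held 72 of the 137. Each value is the highest of a gene's regions, whose median number was 1 at these receptors and 2 at the other genes. The best summit was upstream of the gene in 74 of the 137 receptors, or 54.0%, with an interval of 45.7 to 62.1, and in 58.0% of the others. The receptor had the nearest protein-coding 5' end in 82.5% of cases (75.3 to 87.9), against 70.2% for the others, and receptors lay farther from the next protein-coding 5' end, with a median of 2661 bp against 2120 bp. A non-coding 5' end was nearer in 19.7% of receptors (13.9 to 27.2) and in 19.5% of the others. A tRNA 5' end lay within 500 bp of that summit in 2 receptors, or 1.46%, and in 1.80% of the others.

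**Figure D2:**
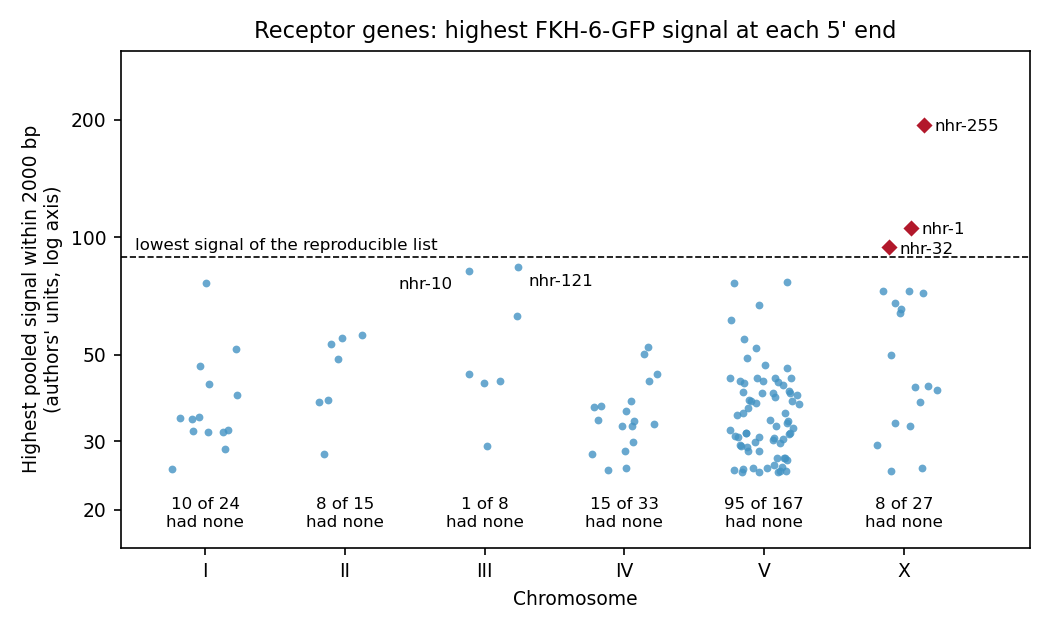
Highest pooled FKH-6-GFP signal within 2000 bp of each receptor gene's 5' end, in the authors' units on a log axis, by chromosome. Red diamonds have a reproducible region, blue points do not, the dashed line is 89.1, the lowest signal in the reproducible list, and the numbers below give receptors with no pooled region. The diamonds nhr-255, nhr-1 and nhr-32 stand on X, and no receptor on V passes 76.8.

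Below the reproducible list, the next receptors by pooled signal were spread over 4 chromosomes. Keeping pooled regions whose −log10 q-value reached 2 left 5 receptors, or 1.82%, against 5.72% of other protein-coding genes; the added ones were nhr-121 and nhr-10. The nhr-121 region had a pooled signal of 83.8, with 38.1 in replicate 1 and 42.8 in replicate 2, 843 bp upstream of the gene, and 526 bp from the pseudogene WBGene00305991. The nhr-10 region had 82.0, with 40.8 in replicate 1 and 37.6 in replicate 2, 1367 bp upstream, and no gene was nearer. The nhr-10 protein is known to switch on the propionate shunt when vitamin B12 is low.

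On chromosome V, nhr-142 had a pooled signal of 76.8 (33.2 in replicate 1, 45.4 in replicate 2) with its summit 520 bp upstream, and F44E7.9 was nearer, at 157 bp. The nhr-47 gene had 76.3 (34 in replicate 1, 12 bp upstream, and 49.4 in replicate 2, 844 bp upstream), with its pooled summit at 844 bp, where dnj-19 was nearer at 448 bp. The nhr-95 gene had 66.9 (25.03 in replicate 1, 36.6 in replicate 2), 70 bp inside its 5' end, with no gene nearer. So 2 of these 3 chromosome V regions stood closer to another protein-coding gene.

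On chromosome I, nhr-64, which acts in fat metabolism, had 76.3 only 11 bp inside its 5' end, with 29.7 in replicate 1 and 42.0 in replicate 2, and no gene was nearer. The other named genes were on X. The nhr-3 region had 72.6 (41.4 in replicate 1, 33.1 in replicate 2), 783 bp upstream and 56 bp from the ncRNA gene H01A20.2. The nhr-25, nhr-48 and daf-12 genes are described with the conserved receptors.

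The replicates were set beside each other for the 83 receptors with a region in both lists. Their highest signals had a Spearman rho of 0.444 across these genes, and 0.503 across 8491 other genes. The points share libraries and in part regions, and rho is given as a description. The 3 receptors with a reproducible region were the 3 highest in replicate 2. The reproducible list was drawn from these same replicates, so this is not separate support. In replicate 1, nhr-255 and nhr-1 were the highest, but nhr-32, at 36.6, came below nhr-3, nhr-10, nhr-121, nhr-61 (37.8) and nhr-48. Among the 767 highest regions of each replicate alone, replicate 1 held nhr-1 and nhr-255 and replicate 2 held nhr-1, nhr-32 and nhr-255.

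**Figure D3:**
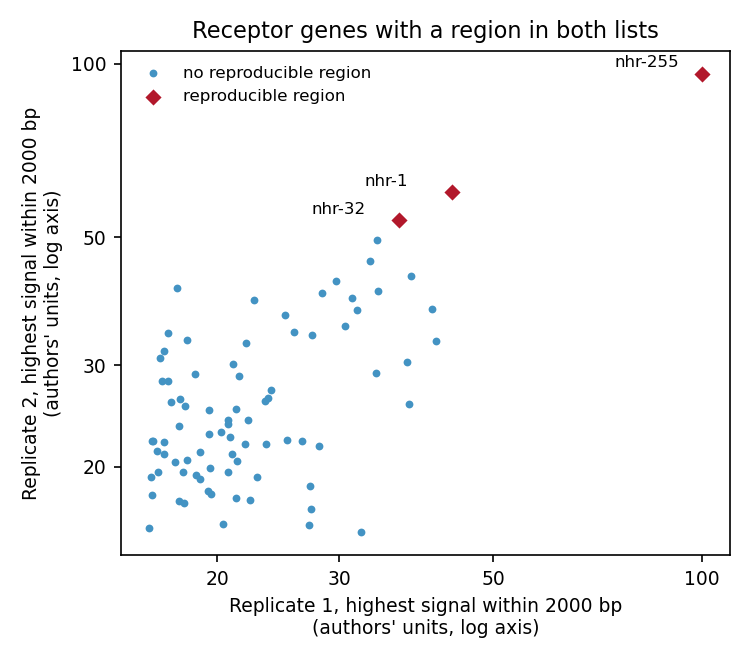
Highest signal within 2000 bp in replicate 1 (x axis) and replicate 2 (y axis) for the 83 receptors with a region in both lists, in the authors' units on log axes. Red diamonds have a reproducible region. The nhr-255 gene stands apart at 99.96 and 96.1, and the others run together without a gap.

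The receptors with counterparts in other animals nearly all had a pooled region within 2000 bp, but none there in the reproducible list. Among these 15 genes, 14 had a pooled region within 2000 bp, or 93.3%, with an interval of 70.2 to 98.8. A region in both replicate lists was found for 12, or 80%. Of the 259 other receptors, 123 had a pooled region, or 47.5% (41.5 to 53.6), and 71 had one in both replicate lists, or 27.4%. Of the other protein-coding genes, 61.1% had a pooled region and 43.1% had one in both replicate lists. A reproducible region within 2000 bp was found for 0 of the 15, a count that allows up to 20% and so holds the 4.17% of other protein-coding genes. Their highest pooled signals had a median of 48.1, against 35.1 in the other receptors and 40.6 in the other protein-coding genes with a region. They were also longer, with a median of 5191 bp against 2270 bp, and lay farther from the next protein-coding 5' end, with a median of 5729 bp against 2597 bp. They differed in chromosome too, since nhr-111 alone of the 15 lies on V, which held 167 of the 274 receptors. A pooled region lay near 43.1% of receptors on V and 60.7% of those elsewhere. The part of length, spacing and chromosome in the counts was not tested.

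The highest of these were nhr-25, nhr-48 and daf-12. The nhr-25 gene, a counterpart of fly Ftz-f1 that acts in moulting and in epidermal and gonad development, had 5 pooled regions, the strongest at 72.9 and 228 bp inside the gene. That summit had 31.9 in replicate 1 and 37.4 in replicate 2, at 188 and 230 bp. The nhr-48 gene, a close relative of daf-12, had 71.9 at 885 bp upstream and 64.5 at 677 bp upstream. Replicate 1 had 37.5 and 37.6 at those 2 places, and replicate 2 had 30.3 at 609 bp. The daf-12 gene, the receptor for dafachronic acids in dauer entry, had 1 pooled region of 67.6, at 1868 bp inside the gene, with 34.1 in replicate 1 and 35.7 in replicate 2 at that place. The lowest were nhr-23, nhr-8 and nhr-85. The nhr-23 gene, a counterpart of mammalian ROR that drives moulting, had at most 34.5, and nhr-85, the counterpart of fly E75, had 31.9. The nhr-8 gene, which acts in xenobiotic resistance, had 32.9 in the pooled list, 23.5 in replicate 1 and no region in replicate 2.

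Between them, sex-1 and nhr-239 came next after daf-12. The sex-1 gene, an X signal element in the counting of X chromosomes, had 4 pooled regions, the strongest of 63.9 at 937 bp inside the gene, with 31.3 in replicate 1 and 31.8 in replicate 2. A second one, 420 bp upstream, had 58.6, with 21.5 in replicate 1 and 39.3 in replicate 2. The nhr-239 gene had 62.8 at 1910 bp upstream, with 24.5 in replicate 1, 1760 bp upstream, and 39.9 in replicate 2. The nhr-67 gene, a counterpart of fly tailless that acts in the gonadal anchor cell and in neurons, had 52.3 at 872 bp upstream, with 23.7 in replicate 1 and 26.3 in replicate 2. The nhr-6 gene, needed for the spermatheca, had 42.9 at 20 bp upstream, with 29.2 in replicate 2 and no region in replicate 1.

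Of the neuronal receptors, 3 of 4 had a pooled region and 0 of 4 a reproducible one within 2000 bp. With 4 genes the interval of the pooled share, 30.1 to 95.4%, holds the 61.1% of other protein-coding genes. A count of 0 of 4 allows up to 75%, which holds their 4.17%. The unc-55 gene, which sets the synaptic pattern of a motor neuron class, had 51.5 at 1614 bp upstream, with 30.6 in replicate 1 and 22.2 in replicate 2 at the nearest summits. The fax-1 gene, which acts in axon pathfinding, had 41.2 at 991 bp inside its 5' end. Replicate 1 had 28.1 near that place, and the region of replicate 2 lay elsewhere, 1657 bp upstream with 21.7. The odr-7 gene, which sets the identity of the AWA olfactory neurons, had no region within 2000 bp in any list, and its nearest reproducible summit was the tRNA-gene region at 3431 bp. Of the remaining conserved genes, nhr-41 had 44.6 at 358 bp upstream, nhr-91 had 40.5 at 1972 bp inside the gene, and nhr-111, the single conserved gene on chromosome V, had a region in replicate 2 alone, with 20.1.

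**Figure D4:**
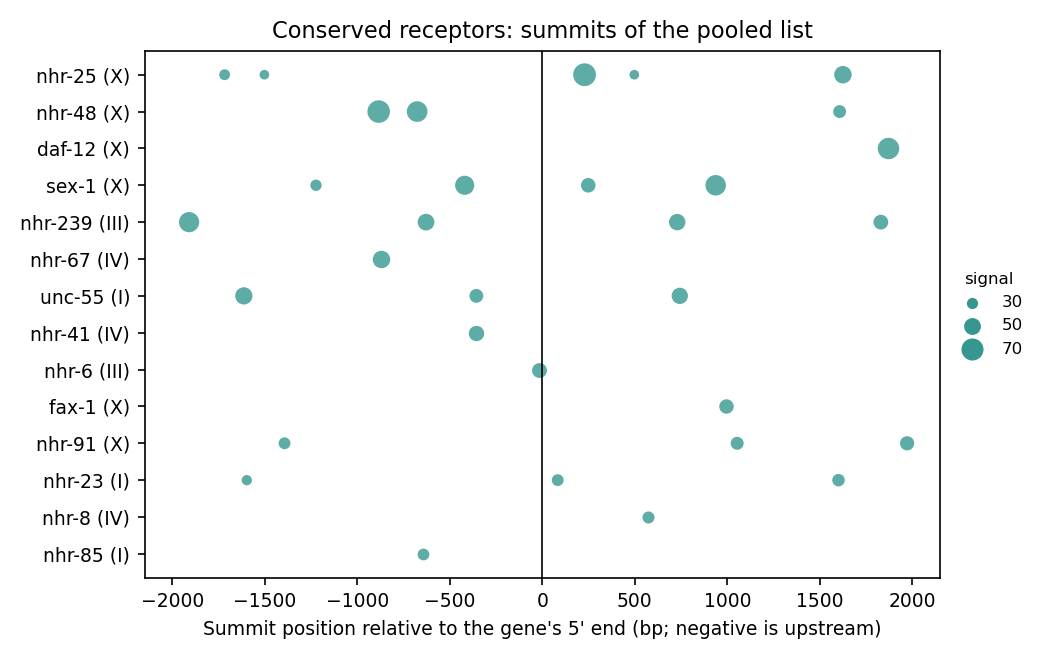
Summits of the pooled list within 2000 bp of the 5' end of the 14 conserved receptors that had one, by position in bp (negative is upstream), with point area growing with signal and the chromosome in brackets. Genes run from the highest signal, nhr-25 at 72.9, to the lowest, nhr-85 at 31.9, and summits lie on both sides of the 5' end.

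Receptors known for fat, nutrient and xenobiotic metabolism, most of them of the HNF4-related kind, had a pooled region in 10 of 12 cases and a reproducible one in 0 of 12. The interval of the pooled share, 55.2 to 95.3%, holds the 61.1% of other protein-coding genes, and 0 of 12 allows up to 25%, which holds their 4.17%. A region in both replicate lists was found for 7. Their highest pooled signals had a median of 39.4. Beside nhr-10 and nhr-64, the highest were nhr-86, which acts in the response to a pathogenic bacterium, with 54.7 at 110 bp upstream, and nhr-49, a main regulator of fatty acid use, with 46.7 at 305 bp upstream. The nhr-86 region had 25.8 in replicate 1 and 34.2 in replicate 2, and the nhr-49 region had 27.4 and 32.3.

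Enzymes and cofactors that work with the receptors were taken from a list of 9, of which 8 were matched by name. Reproducible regions were found at 2 of these 8, both cofactor genes (7.15 to 59.1%), against 4.17% of other protein-coding genes. Pooled regions were found at 7 (52.9 to 97.8%), an interval that holds the 61.1% of those genes. The din-1 gene, a co-repressor of DAF-12, had reproducible regions of 118 at 1594 bp upstream and of 90.0 at 657 bp upstream. The stronger lay 22 bp from the snoRNA gene ZK20.9 and the weaker 68 bp from the ncRNA gene ZK20.8. Replicate 1 had 71.9 and 35.9 at these places, and replicate 2 had 49.3 and 55.04. The cbp-1 gene, a histone acetyltransferase and co-activator, had 97.4 at 871 bp upstream, with 40.1 in replicate 1 and 56.5 in replicate 2.

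The ncRNA gene R10E11.10 had its 5' end 529 bp from that cbp-1 summit, so it was nearer than cbp-1. The mdt-15 gene, a Mediator subunit that binds NHR-49, had 88.9 at 1683 bp upstream and so fell just under the 89.1 of the reproducible list. In replicate 1 it had 35.4 and in replicate 2 it had 49.5, and R12B2.6, at 1281 bp, was nearer. Genes of sterol and ligand metabolism were lower. The hsd-1 gene had 44.6, dhs-16 had 40.1 and strm-1 had 32.7 in the pooled list.

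Chromosome V held 167 of the 274 receptors, and 0 of these 167 had a reproducible region within 2000 bp, which allows a share of up to 1.80%. The background there was also low, since 2.94% of the other 4827 protein-coding genes of V had one. Both the limit of 1.80% and the upper Wilson bound of 2.25% lie under that share, with neighbouring receptors treated as independent. For the central and outer stretches of V taken apart, described below, the limits hold the other genes' shares. No test was made. Of the 107 receptors elsewhere, 3 had a reproducible region within 2000 bp, or 2.80% (0.958 to 7.92), against 4.57% of the other genes elsewhere. On X it was 3 of 27, or 11.1% (3.85 to 28.1), against 4.47% of other genes of X. The interval on X holds the share of the other genes. The single reproducible region within 5000 bp of a chromosome V receptor was the snoRNA-gene region beside nhr-102.

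The pooled list also gave its lowest shares on V. A pooled region lay near 72 of the 167 receptors on V, or 43.1% (35.8 to 50.7), and near 47.3% of the other genes of V. Elsewhere it lay near 65 of 107 receptors, or 60.7% (51.3 to 69.5), and near 65.6% of the other genes. In the pooled list the interval of the receptors holds the share of the other genes on both sides, and other genes on V had a lower share than other genes elsewhere. A region in both replicate lists was found for 22.8% of V receptors (17.1 to 29.7) and 31.3% of other V genes, and in replicate 1 the shares were 34.1% (27.4 to 41.6) and 43.5%. In those counts the interval of V receptors lies under the share of other V genes. In replicate 2 they were 49.1% (41.6 to 56.6) and 49.4%. The highest signals had a median of 33.6 at V receptors with a region and 38.3 at those elsewhere, and 38.8 and 41.1 at other genes. The largest V value was 76.8, at nhr-142.

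**Figure D5:**
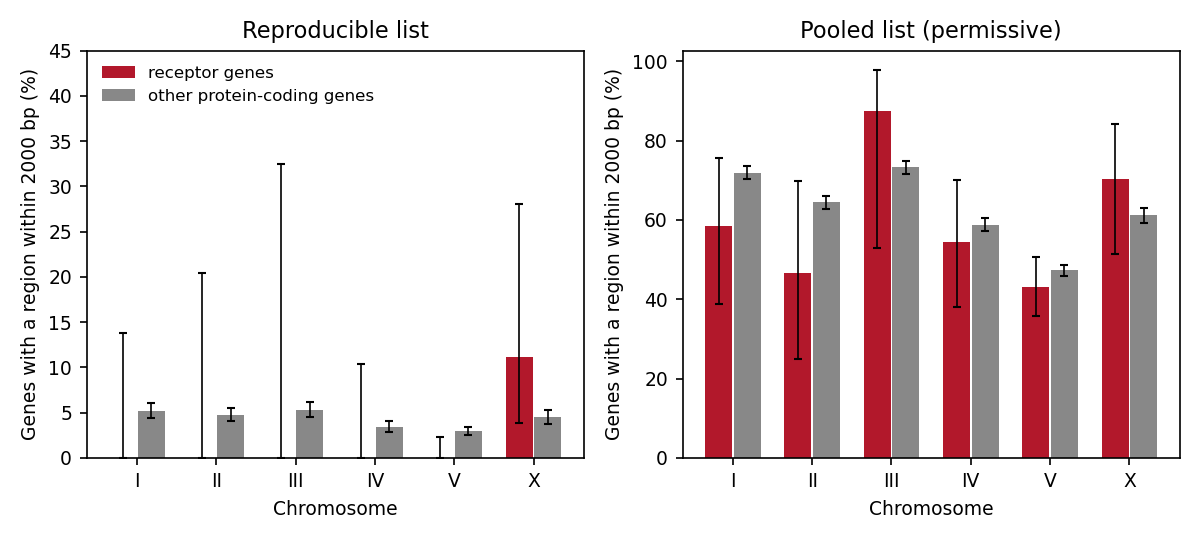
Share of genes with a region within 2000 bp, in percent, by chromosome, for receptor genes (red, left bar) and other protein-coding genes (grey, right bar), in the reproducible list and in the pooled list; error bars are 95% Wilson intervals. Receptors have a reproducible region on X alone, and both kinds of gene have their lowest pooled share on V.

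Receptors on V were more crowded. Another receptor's 5' end lay within 10000 bp of 121 of the 167 on V, or 72.5%, and of 29 of the 107 elsewhere, or 27.1%. The median distance to the next protein-coding 5' end was 2360 bp on V and 3935 bp elsewhere. Pooled regions within 2000 bp of a receptor numbered 88 on V and 118 elsewhere, and 13 of those on V and 2 of those elsewhere lay near more than 1 receptor. Receptors that share a region are not separate observations, and the counts over genes are not counts of separate regions.

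Within V the observed pooled share of receptors was lower at the centre than toward the ends, with overlapping intervals. Each chromosome was split by length into 3 equal stretches, a division chosen after the values were seen. In the central stretch of V, 11 of 41 receptors had a pooled region, or 26.8% (15.7 to 41.9), against 46.4% of the other 1757 genes there. In the outer stretches, 61 of 126 receptors had one, or 48.4% (39.9 to 57.1), against 47.8% of the other 3070 genes. Elsewhere in the genome, central receptors had one in 67.6% of cases (50.8 to 80.9) and central other genes in 63.6%. The interval of central V receptors lies under the share of the genes around them, and it treats neighbouring receptors as independent. For reproducible regions, 0 of 41 central V receptors allows up to 7.32%, which holds the 4.27% of other genes there. In the outer stretches, 0 of 126 allows up to 2.38%, which holds 2.18%.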

How the data were processed

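FKH-6-GFP ChIP-seq was measured in 2 biological replicates of whole late embryos. Per the deposited descriptions, the authors called permissive region lists on each replicate and on both pooled, against a control alignment, and thresholded the reproducible list by the irreproducible discovery rate. No source used here names the caller, the aligner or the threshold. Column 7, the deposited signal, ranked and filtered regions within a list, and the deposited −log10 q-value (column 9) served for a stricter list. Depth per sample is unknown. Only the ce11 lists were used, since no ce10 annotation was at hand. There were 0 columns of other samples.

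The summit was the region start plus the deposited offset. Genes came from Ensembl release 115 and sequences from RefSeq, both on WBcel235. Annotated 5' ends of worm genes are often trans-splice sites. Computation used Python 3.11.15, NumPy 2.4.6, SciPy 1.17.1 and Matplotlib 3.10.9. Assignment was checked on planted summits and against an exhaustive search. Shares carry 95% Wilson intervals for counting error only, and 3 counts set the upper limit where none was seen. With 1 group there was no test. Other distances, transcript starts, stricter lists and each replicate alone were tried.

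The members and gene lists were chosen with earlier results of these data known. Named were receptors with a reproducible region, the next 10 by pooled signal, the conserved receptors, the leading members of the metabolic, neuronal and cofactor lists, and nearer neighbours. The genes nhr-40, nhr-17, nhr-281, nhr-102, nhr-11 and nhr-61 were chosen after their values were seen.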

Additional observations from a re-analysis of the deposited data

How the results depend on the processing

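Of 39 alternative values, 25 stayed within 1.5 times the reported one. Receptors with a reproducible region numbered 9 within 5000 bp (1 on V, 8 elsewhere), 5 with transcript starts (5 elsewhere) and 1 among the nuclear regions above their median signal (1 elsewhere, nhr-255), and 2 to 3 from a single replicate (0 on V). Receptors with a pooled region numbered 54 within 500 bp, 88 within 1000 bp and 5 where −log10 q reached 2, and 117 to 146 from a single replicate. Those with a region in both replicate lists numbered 28 within 500 bp, 48 within 1000 bp and 166 within 5000 bp. Other genes were not counted at these distances, with transcript starts, or above the median signal, so those counts have no background share. Of the 3 regions, 0 matched in both replicates with summits within 50 bp, and 3 did within 100 bp. For nhr-32 the match in replicate 2 was the weak summit of 18.4, at 99 bp, while the stronger one of 53.5 lay at 101 bp. Without replicate 2, nhr-32 was lost, and without regions near a tRNA, snoRNA or snRNA gene 2 receptors were left, nhr-255 being lost. No paired analysis was possible because there was 1 group. Depth is unknown, so the absence of a region is not shown to be absence of binding.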

Other observations

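Near the left end of chromosome V, 6 of the 13 pooled regions that lay near more than 1 V receptor lay within 57.1 kb, with summits from 476625 to 533751. In that stretch, widened by 10000 bp at each side, stood 11 receptors, among them nhr-99, nhr-55, nhr-130, nhr-212, nhr-211, nhr-106, nhr-58 and nhr-132. A pooled region lay within 2000 bp of 10 of these 11, replicate 1 had one for 6 and replicate 2 for 10, and 0 had a reproducible region. The pooled share was 43.1% over all V receptors and 47.3% over other V genes. The receptors named here had a pooled region by the way the stretch was chosen, so the count of 10 is not a finding about it. Their highest pooled signals ran from 25.5 to 40.4, with a median of 33.3, close to the 33.6 of all V receptors with a region. The stretch was chosen after its values were seen.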
